A study of Bos taurus with 6 samples.

Results

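Fatty acid oxidation is the pathway by which muscle mitochondria, and for some substrates peroxisomes, shorten fatty acids and pass their electrons to the respiratory chain. A fatty acid is carried into the fibre, joined to coenzyme A, moved across the inner mitochondrial membrane as a carnitine ester, and then shortened in a spiral of dehydrogenation, hydration, a second dehydrogenation and thiolysis. Resting muscle and slow oxidative fibres draw much of their energy from it, and its enzymes are known targets of the PPAR nuclear receptors, which bind DNA together with retinoid X receptors.

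The 30 genes taken here are the enzymes, carriers and electron acceptors of mitochondrial and peroxisomal fatty acid oxidation that were listed by symbol. A gene was measured where the platform annotation gave a probe set that symbol and no other, and its probe set with the highest mean over the 6 arrays stands for it. By this rule 29 of the 30 genes had a probe set, of 9155 genes named on the array. ETFDH, the oxidoreductase that hands the electrons on to ubiquinone, had none and was not analysed here. The 29 genes have 36 probe sets, and 7 of the genes have more than 1.

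The tissue was longissimus thoracis, the long muscle beside the spine that yields the rib steak, from 6 Japanese Black steers (castrated males of a beef breed), with 1 array per steer. All 6 were fattened for 7 months from 13 to 14 months of age, and fed for a gain of 1.0 kg per day. The 3 steers of the supplemented group received 296.8 IU of vitamin A per kg body weight by mouth every week, and the 3 of the restricted group did not. Supplemented steers 1, 2 and 3 were sampled at 600, 612 and 618 days of age, and restricted steers 1, 2 and 3 at 589, 595 and 611 days. The comparison of the 2 groups asks how expression in muscle differs with vitamin A intake during fattening.

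The deposited values are taken as log2 values and differ very little between steers, by a processing step that is not stated. The highest and lowest array lay a median of 0.677 millionths (1e-06) of a log2 unit apart over the 24016 tested probe sets. Values of a gene are therefore given below as departures from its own mean over the 6 arrays, in millionths of a deposited log2 unit, and no difference is read as a fold change. Differences are restricted minus supplemented, with the standard error (SE) from limma, and are also expressed in units of the gene's own standard deviation (SD) within a diet, called within-group SDs. Muscle identity was clear in the levels: ACTA1, TNNC2, TNNT3, MYH1, CKM, PYGM and DES, the 7 measured of 12 listed fibre markers, had mean deposited log2 values from 9.71 to 12.67, where the median probe set had 5.14. The 1 probe set past the adjusted threshold in the whole table was that of DHRS3, a retinaldehyde reductase outside the pathway.

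Most genes of fatty acid oxidation had a higher mean in restricted steers, but none passed the test. The mean was higher in 23 of the 29 genes and lower in 6, against 49.5% higher among all 9155 genes. The groups did not overlap in 6 genes, MLYCD, ACADM, HADHA, HADHB, ETFA and ACOX3, all of them higher in restricted steers. These are 20.7% of the genes, beside 4.15% of all genes that were higher without overlap. By limma with adjustment over 24016 probe sets 0 of the 29 genes passed 0.05, where 0.00416% of all probe sets did, and each had a limma adjusted p of 1. At an unadjusted limma p under 0.05 there were 3, HADHA, ETFA and ACOX3, or 10.3%, beside 2.15% of all genes in that direction. The genes of a pathway vary together from steer to steer, so these shares do not rest on 29 independent values. The list was also chosen with earlier results of these data known, so the shares of all genes describe it and do not test it.

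**Figure D1:**
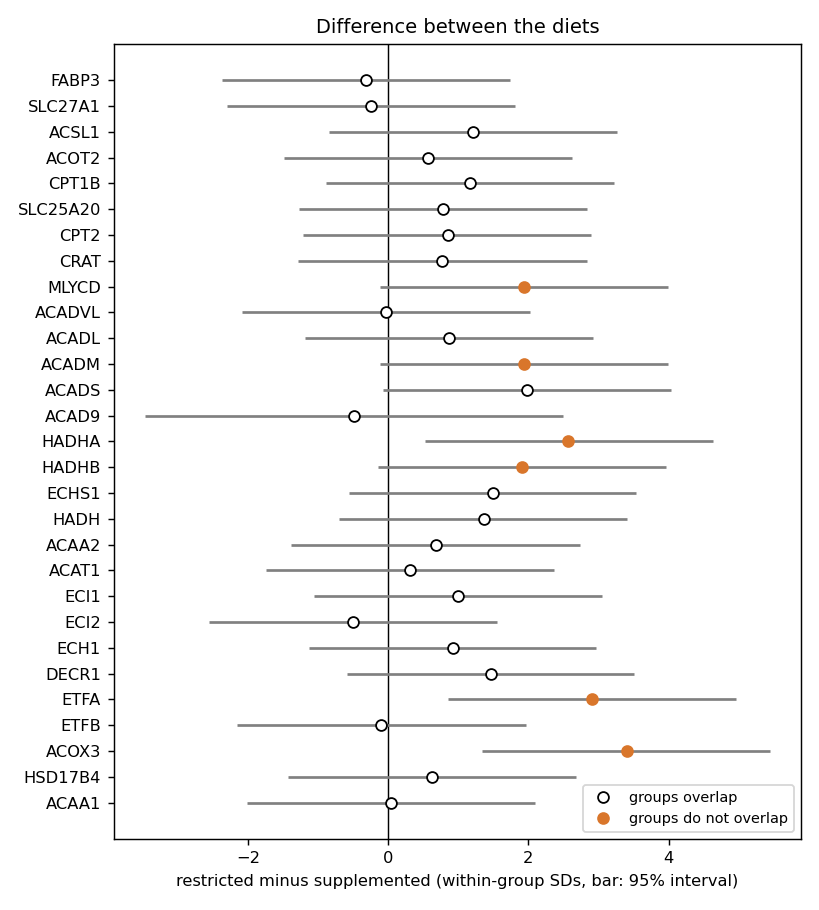
Difference between the diets for each of the 29 genes, in within-group SDs on the horizontal axis, with its 95% interval from limma (3 against 3 steers). Filled points are the 6 genes without overlap of the groups. The intervals of HADHA, ETFA and ACOX3 lie above 0 and the other 26 include it.

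The median difference of the 29 genes was 0.871 within-group SDs, beside -0.00788 over all genes. In 12 genes the difference exceeded 1 SD, all of them higher in restricted steers, and in 7 it was within 0.5 SD of 0. The 6 genes that were lower lay between -0.504 SDs in ECI2 and -0.0337 SDs in ACADVL. All 6 were thus smaller than the spread between steers of a diet.

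The 2 steers numbered 1 stood apart most often. Supplemented steer 1 was the lowest of the 6 in 15 of the 29 genes and the highest in 0, where it was lowest in 18.8% of all genes. Restricted steer 1 was the highest in 16 of the 29 and lay above all 3 supplemented steers in 21, where it was highest in 16.3% of all genes. Restricted steer 2, by contrast, was the lowest of the 6 in 7 genes (24.1%, beside 18% of all genes) and lay above all supplemented steers in 9. Restricted steer 3 lay above all supplemented steers in 13. The counts above all supplemented steers were not set beside a share of all genes.

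**Figure D2:**
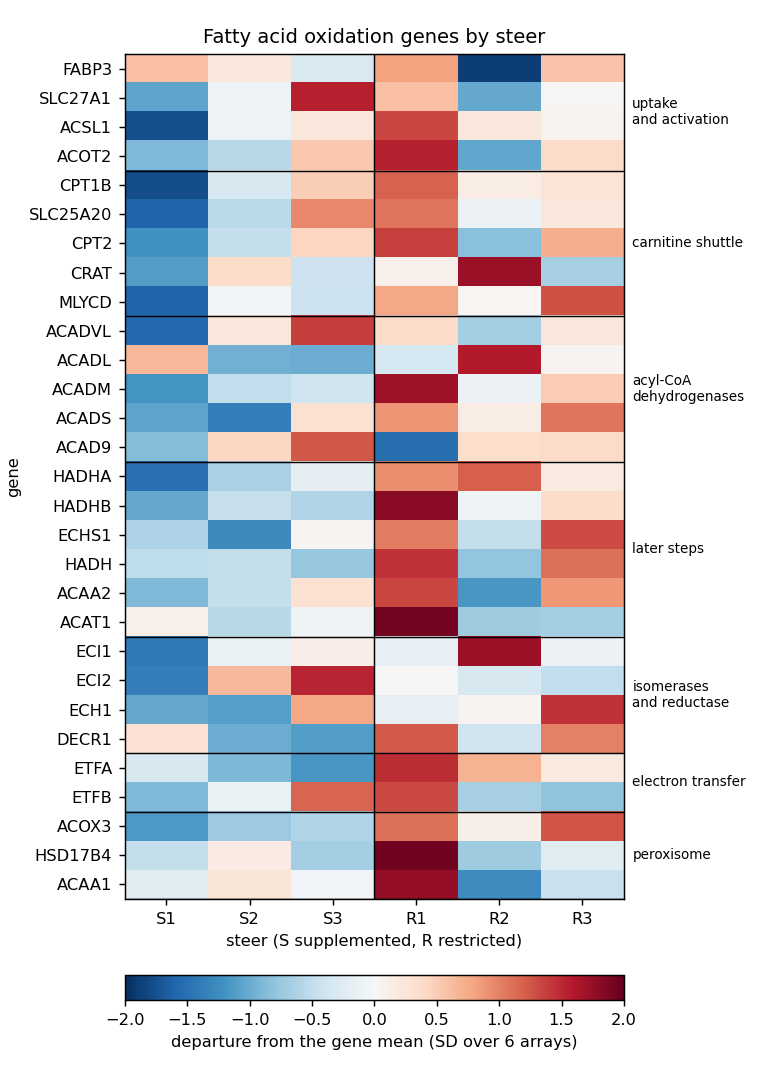
Departure of each steer from the gene's mean, in SDs over the 6 arrays, for the 29 genes in rows grouped by role. Columns S1 to S3 are supplemented and R1 to R3 restricted steers. Blue is below and red above the gene's mean, and most rows are blue in S1 and red in R1.

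Averaged over the 29 genes, the departure in SDs over the 6 arrays was -0.877, -0.364 and 0.115 in supplemented steers 1, 2 and 3 and 0.925, -0.147 and 0.348 in restricted steers 1, 2 and 3. The groups overlap in this average, because supplemented steer 3 lay above restricted steer 2. Without both steers numbered 1, a setting chosen after seeing the data, 16 of the 29 genes were higher, beside 48.2% of all genes. The median difference was then 0.447 SDs. Higher without overlap were 8 genes (27.6%, beside 13.9% of all genes), a count that can only stay or grow when steers are removed.

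At entry into the pathway the genes did not move alike. FABP3, the heart and muscle carrier of fatty acids in the cytosol, had departures of 104, 36.3 and -51.1 in supplemented and 138, -325 and 97.5 in restricted steers. Restricted steer 2 was far below the other 5, and FABP3 had the widest range of the 29 genes, 462 millionths. Its difference was -59.5 ± 146 (SE), and without restricted steer 2 it was 87.9. ACSL1, the acyl-CoA synthetase that activates long-chain fatty acids, departed by -40.0, -2.35 and 5.25 in supplemented and by 30.4, 4.99 and 1.66 in restricted steers. Supplemented steer 1 was low and restricted steer 1 high in ACSL1, and the other 4 steers lay close together.

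The transporter SLC27A1 had its highest value in supplemented steer 3, 1.78, and its lowest in supplemented steer 1, -1.21, so that the restricted steers, from -1.17 to 0.689, fell between them. Its second probe set also gave a difference near 0, -0.00933 ± 0.139 (SE). ACOT2, a mitochondrial thioesterase that releases the fatty acid again, ranged from -0.852 to 0.523 in supplemented and from -1 to 1.49 in restricted steers, so that the restricted steers enclosed the supplemented ones. Of these 4 genes of uptake and activation 2 were higher and 2 lower in restricted steers.

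All 5 genes around the carnitine shuttle had a higher mean in restricted steers, and supplemented steer 1 was the lowest of the 6 in each of them. CPT1B, the muscle form of the enzyme that makes acylcarnitine and controls entry into mitochondria, departed by -3.01, -0.529 and 0.844 in supplemented and by 1.99, 0.246 and 0.455 in restricted steers. Supplemented steer 3 lay above 2 of the 3 restricted steers, and the difference was 1.80 ± 1.19 (SE) or 1.17 SDs. It was 0.740 without supplemented steer 1 and 0.193 without both steers numbered 1. SLC25A20, the carrier that exchanges acylcarnitine for carnitine across the inner membrane, departed by -37.5, -12.6 and 22.4 in supplemented and by 24.8, -2.56 and 5.45 in restricted steers. The same 2 steers were lowest and highest as in CPT1B, and without both of them the difference of SLC25A20 turned to -3.46.

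A second, weaker probe set of SLC25A20 gave 2.87 ± 1.32 (SE) or 1.67 SDs in the same direction. CPT2, which turns acylcarnitine back into acyl-CoA in the matrix, ranged from -3.29 to 1.16 in supplemented and from -2.27 to 3.70 in restricted steers. CRAT, which handles short acyl groups, ranged from -4.68 to 1.51 in supplemented and from -2.77 to 7.25 in restricted steers, with restricted steer 2 the highest. Both overlapped between the diets, at 0.848 and 0.774 SDs.

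MLYCD, malonyl-CoA decarboxylase, breaks down the metabolite that inhibits CPT1. Its departures were -62.0, -2.39 and -16.5 in supplemented and 29.8, 1.78 and 49.3 in restricted steers. Every restricted steer lay above every supplemented one, although supplemented steer 2 and restricted steer 2 were only a little apart. The difference was 53.9 ± 21.4 (SE) or 1.94 SDs (limma unadjusted p = 0.0589), and 35.0 without both steers numbered 1.

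**Figure D3:**
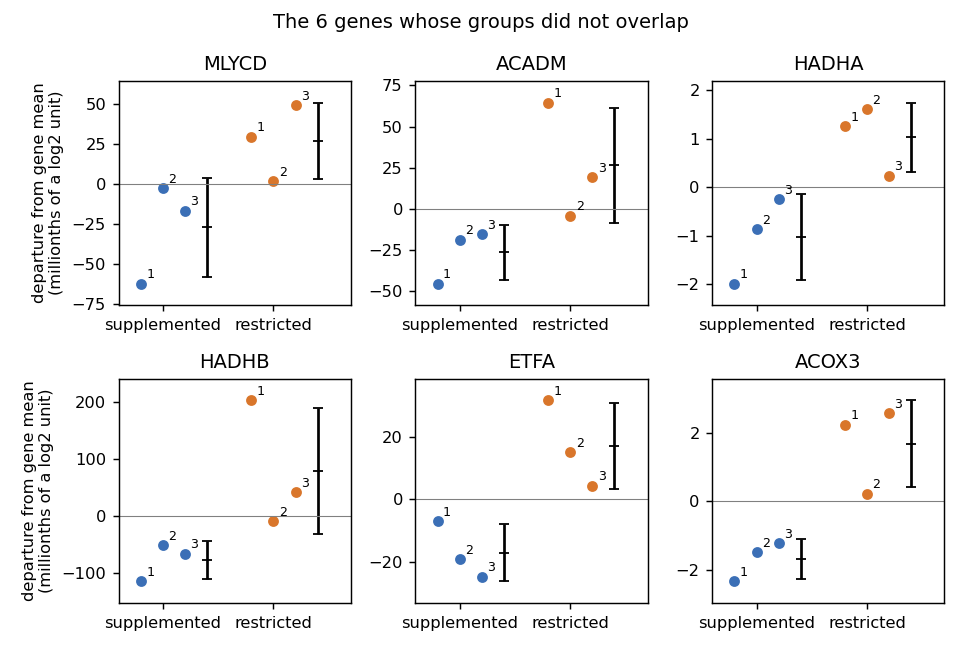
Departure of each steer from the gene's mean, in millionths of a deposited log2 unit, for the 6 genes whose groups did not overlap. Numbers mark the steers of a group, and the black bars show mean ± SD (n = 3). In MLYCD, ACADM, HADHB and ACOX3 restricted steer 2 is the restricted steer nearest to the supplemented group.

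The acyl-CoA dehydrogenases take the first step of the spiral and divide the chain lengths between them. ACADM, for medium chains, departed by -45.4, -18.7 and -15.4 in supplemented and by 64.5, -4.25 and 19.2 in restricted steers. The groups did not overlap, with restricted steer 1 well above the others, and the difference was 53.0 ± 21.1 (SE) or 1.94 SDs (limma unadjusted p = 0.0591). It was 33.9 without restricted steer 1.

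ACADS, for short chains, departed by -8.66, -11.3 and 2.45 in supplemented and by 7.26, 1.29 and 8.91 in restricted steers. Only supplemented steer 3 and restricted steer 2 were out of order, and the difference was 11.6 ± 4.53 (SE) or 1.98 SDs (limma unadjusted p = 0.0556). ACADVL, for very long chains, departed by -11.1, 1.65 and 9.84 in supplemented and by 2.75, -4.83 and 1.67 in restricted steers. The supplemented steers of ACADVL spanned the restricted ones on both sides, and the difference was -0.270 ± 6.17 (SE). Its 95% interval, -2.09 to 2.02 SDs, leaves room for a difference of the size seen in ACADM.

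In ACADL, for long chains, supplemented steer 1 was the highest of its group. ACADL departed by 1.83 there and by -2.64 and -2.75 in supplemented steers 2 and 3. Restricted steers had -0.992, 4.41 and 0.151, and the groups overlapped through supplemented steer 1. ACAD9, which also helps to assemble respiratory complex I, had a mean deposited log2 value of 5.06, below the median of all probe sets, and ranged over 0.0770 millionths in all. It was the 1 gene of the 29 with a level below that median and a range below the 0.677 of all probe sets, and its difference was -0.0147 ± 0.0336 (SE).

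The later steps of the spiral held many of the widest ranges, and all 6 genes had a higher mean in restricted steers. HADHA and HADHB encode the 2 subunits of the mitochondrial trifunctional protein, which carries out hydration, dehydrogenation and thiolysis of long chains. HADHA departed by -1.98, -0.861 and -0.244 in supplemented and by 1.25, 1.60 and 0.238 in restricted steers. HADHB departed by -115, -51.9 and -67.1 in supplemented and by 202, -9.58 and 41.5 in restricted steers.

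Neither subunit overlapped between the diets, and supplemented steer 1 was the lowest in both, but restricted steer 2 was the highest in HADHA and the lowest of the restricted group in HADHB. The difference of HADHA was 2.06 ± 0.617 (SE) or 2.57 SDs (limma unadjusted p = 0.0244, 95% interval 0.520 to 4.63 SDs). The difference of HADHB was 156 ± 62.9 (SE) or 1.91 SDs (limma unadjusted p = 0.0614). Leaving out single steers moved HADHA between 1.58 and 2.46, and HADHB was 94.0 without restricted steer 1. When array medians were equalised HADHA turned to -0.164, since the shift is larger than its difference.

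ECHS1, the short-chain enoyl-CoA hydratase, departed by -70.8, -147 and 5.77 in supplemented and by 117, -55.5 and 151 in restricted steers. HADH, the short- and medium-chain hydroxyacyl-CoA dehydrogenase, departed by -34.7, -32.6 and -51.0 in supplemented and by 98.0, -53.6 and 73.9 in restricted steers. In both genes restricted steers 1 and 3 lay above all supplemented steers while restricted steer 2 lay among or below them. The differences were 142 ± 73.4 (SE) in ECHS1 and 78.9 ± 44.8 (SE) in HADH, or 1.49 and 1.36 SDs. That of HADH was 49.6 without restricted steer 1 and 125 without restricted steer 2. In HADH the supplemented steers were close together, with an SD of 10.1 against 81.5 in the restricted group.

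The thiolases end the spiral. ACAA2, the mitochondrial 3-ketoacyl-CoA thiolase, departed by -3.90, -2.07 and 1.34 in supplemented and by 5.93, -5.16 and 3.86 in restricted steers. Restricted steers 1 and 3 were again the highest and restricted steer 2 the lowest of the 6. ACAT1, which splits and forms acetoacetyl-CoA, departed by 20.1 in restricted steer 1 and by -7.40 and -7.35 in the other two, below all supplemented steers, which ran from -5.75 to 1.09. Its difference of 3.57 ± 8.87 (SE) turned to -5.59 without restricted steer 1.

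The isomerases and the reductase that prepare unsaturated fatty acids for the spiral were mixed. DECR1, 2,4-dienoyl-CoA reductase, departed by 9.20, -31.1 and -34.9 in supplemented and by 38.0, -12.3 and 31.1 in restricted steers. Supplemented steer 1 lay above restricted steer 2, and the difference was 37.8 ± 20.0 (SE) or 1.46 SDs. The second probe set of DECR1 gave -0.220 ± 0.713 (SE), so the direction rests on the brighter one. ECH1, a dienoyl-CoA isomerase, departed by -18.6, -20.2 and 14.2 in supplemented and by -2.87, 0.909 and 26.5 in restricted steers, with supplemented steer 3 above 2 restricted steers.

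The other probe set of ECH1 gave -0.136 ± 0.799 (SE). ECI1, an enoyl-CoA isomerase of mitochondria, ranged from -1.89 to 0.173 in supplemented and from -0.214 to 2.27 in restricted steers, where restricted steer 2 stood alone at the top. ECI2, the related isomerase also found in peroxisomes, ranged from -5.74 to 6.38 in supplemented and from -2.09 to 0.0498 in restricted steers. The supplemented group of ECI2 enclosed the restricted one, with supplemented steer 1 lowest and supplemented steer 3 highest.

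Electrons from the dehydrogenases pass to the electron transfer flavoprotein, a pair of the subunits ETFA and ETFB. ETFA departed by -6.97, -19.3 and -24.9 in supplemented and by 31.8, 15.1 and 4.36 in restricted steers. All restricted steers lay above all supplemented ones, and supplemented steer 1 was here the highest of its group. The difference was 34.1 ± 9.05 (SE) or 2.91 SDs (limma unadjusted p = 0.0159, 95% interval 0.855 to 4.96 SDs), and it ran from 26.8 to 40.5 when single steers were left out. Quantile normalization turned it to -433 ± 428 (SE) or -0.816 SDs.

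ETFB departed by -0.307, -0.0442 and 0.409 in supplemented and by 0.460, -0.234 and -0.283 in restricted steers. Its groups overlapped and its whole range of 0.767 millionths was among the narrowest of the 29 genes, although its mean level of 5.79 was above the median of all probe sets. The partner subunits thus differed by 2.91 and -0.0983 SDs, with 95% intervals of 0.855 to 4.96 and -2.16 to 1.96 SDs that overlap. Whether they differ from each other was not tested.

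In peroxisomes ACOX3, an acyl-CoA oxidase for branched chains, had the largest difference of the 29 genes in SDs. It departed by -2.34, -1.49 and -1.22 in supplemented and by 2.24, 0.225 and 2.58 in restricted steers. Restricted steers 1 and 3 stood together at the top, restricted steer 2 lay between them and the supplemented group, and nothing overlapped. The difference was 3.36 ± 0.764 (SE) or 3.40 SDs (limma unadjusted p = 0.00901, 95% interval 1.34 to 5.45 SDs), and leaving out single steers moved it between 2.92 and 4.09. With array medians equalised the difference of ACOX3 was 1.14 ± 2.49 (SE) or 0.376 SDs and its groups overlapped. With quantile normalization the difference turned to -9.88 ± 9.77 (SE).

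HSD17B4, the D-bifunctional protein that follows the oxidase, departed by 22.8 in restricted steer 1 and between -8.40 and 2.02 in the other 5. ACAA1, the peroxisomal thiolase, likewise had restricted steer 1 at the top, 0.975, and restricted steer 2 at the bottom, -0.698. Both therefore rested on restricted steer 1, and without it their differences turned to -1.74 and -0.460. A second probe set of HSD17B4 gave -0.0393 ± 0.120 (SE).

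**Figure D4:**
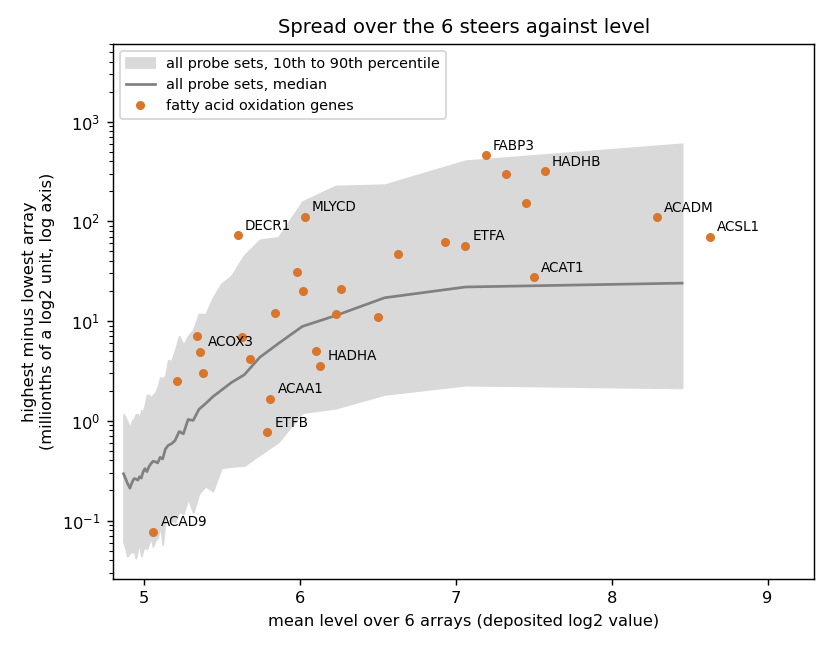
Highest minus lowest array, in millionths of a deposited log2 unit on a log axis, against the mean deposited log2 value, for the 29 genes (points) and all 24016 tested probe sets in 40 bins of level (line, median; band, 10th to 90th percentile). FABP3 has the widest range, 462, and ACAD9 the narrowest, 0.0770.

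Ranges over the 6 steers ran from 0.0770 to 462 millionths among the 29 genes, with a median of 20.2, and 28 of the 29 exceeded the median of all probe sets. Mean level was above that of the median probe set in 28 as well. Genes with higher deposited values had wider ranges, with a Spearman's rho of 0.740 over the 29 genes and 0.673 over all 9155, where genes of 1 array set share steers and processing. The level of a probe set depends on its probes as well as its transcript, so levels of different genes are not ranked. Within-group SDs are thus the scale on which the 29 genes can be set side by side, and millionths are not.

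Other genes of the pathway were taken in 10 lists, of which 98 of 139 entries were measured. By limma 0 of the 98 passed the adjusted threshold. At an unadjusted p under 0.05 there were 3 higher, or 3.06% beside 2.15% of all genes, and 2 lower, or 2.04% beside 2.47%. The mean was higher in 57, the median difference was 0.128 SDs, and 8 were higher without overlap, or 8.16% beside 4.15% of all genes. Lower without overlap were 4 of the 98, beside 420 of all 9155 genes. Among genes of propionate and ketone body use 6 of 8 were higher, PCCA of propionyl-CoA carboxylase by 3.20 ± 1.03 (SE) or 2.39 SDs and the cytosolic thiolase ACAT2 by 1.90 SDs, both without overlap. Among other acyl-CoA dehydrogenases and mitochondrial hydratases 10 of 13 were higher, the valine catabolism enzyme HIBADH by 34.4 ± 8.07 (SE) or 3.29 SDs without overlap and ACADSB by 0.933 SDs with overlap.

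Peroxisomal oxidation and transport outside the 29 genes had 6 of 10 higher, catalase (CAT) by 1.29 and AMACR by 0.963 SDs, both with overlap, and 0 of the 10 were without overlap. Peroxisome assembly had 4 of 9 higher. PEX10 differed by -0.0980 ± 0.0257 (SE) without overlap, within a very narrow range, and PEX5 by -1.06 SDs. Thioesterases had 3 of 6 higher, with ACOT9 at -1.68 and ACOT4 at -1.44 SDs lower without overlap. Carnitine supply and transfer had 4 of 7 higher, SLC25A29 differing by -1.78 and ALDH9A1 by -1.13 SDs.

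Acyl-CoA synthetases and binding proteins had 6 of 12 higher, ACSF2 by 1.5 SDs, with ACBD3 at -1.39. Of the flavin supply genes 0 of 5 were higher, SLC52A2 and SLC52A3, riboflavin transporters, differing by -0.863 and -0.688 SDs. Regulators had 11 of 21 higher. Among them SIRT5, a mitochondrial deacylase, differed by -17.4 ± 3.47 (SE) or -3.86 SDs, lower in all restricted steers (limma unadjusted p = 0.00551), and PPARG by 1.41 SDs. Genes of lipolysis, which supply fatty acids, were higher in 7 of 7, among them G0S2, an inhibitor of triglyceride lipase, by 2.06 SDs and the fatty acid transporter CD36 by 1.88 SDs, both without overlap.

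Markers of mitochondrial content and of fat cells also had higher means in restricted steers, with 0 past the adjusted threshold by limma. At an unadjusted limma p under 0.05, 3 of the 26 were higher, or 15.4% and 7.69% of the 2 lists, beside 2.15% of all genes. Higher without overlap were 15.4% and 23.1%, beside 4.15% of all genes. Of 13 measured mitochondrial content genes 13 were higher in restricted steers, with a median of 0.813 SDs, and supplemented steer 1 was the lowest in 11 of them. Their mean departure in SDs over the 6 arrays ran from -1.38 to 0.322 in supplemented and from 0.00418 to 0.703 in restricted steers, and NDUFV1 of complex I and the chaperonin HSPD1 were without overlap, at 2.31 and 2.27 SDs. Restricted steer 1 was the highest in 2 of these 13 and restricted steer 2 in 7, at mean departures of 0.592 and 0.703. Among the 29 oxidation genes they were the highest in 16 and 4, at 0.925 and -0.147.

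Of 13 measured adipocyte markers 13 were higher as well, with a median of 1.41 SDs, and restricted steer 1 was the highest in 9 of them. Their mean departure in SDs ran from -0.903 to -0.0300 in supplemented and from -0.336 to 1.02 in restricted steers. CFD, the adipocyte protease factor D, differed by 157 ± 19.0 (SE) or 6.35 SDs. In a piece of whole muscle a different share of a cell type and a different amount of RNA per cell cannot be told apart, and the part of fat cells or of mitochondrial content in the values above was not tested. LIPE and PPARG are also among the related genes above, and CD36 and FABP4 are expressed by muscle as well as fat. The arrays come without detection calls, so no marker can be called absent.

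Of the 7 fibre markers that served to check the tissue 1 was higher, with a median of -0.450 SDs, and PYGM, the muscle glycogen phosphorylase, differed by -27.3 ± 5.10 (SE) or -4.13 SDs, lower without overlap. Of 7 fast fibre markers 0 were higher, with a median of -0.730 SDs, and of 9 slow fibre markers 5 were, with a median of 0.0209 SDs. MYH1, the fast IIX myosin, differed by -26.7 ± 5.94 (SE) or -3.46 SDs without overlap. That is the brightest of its 8 probe sets, and the others are not reported here. MYH1, TNNC2 and TNNT3 are in both the fibre and the fast fibre list. Endothelial markers were higher in 7 of 8 (median 0.804 SDs), macrophage markers in 2 of 4, red blood cell markers in 2 of 4 and liver genes, listed as a check, in 2 of 4. By steer, restricted steer 1 was the highest in 5 of 9 slow fibre and 5 of 8 endothelial markers. Supplemented steer 1 was the lowest in 4 and 3 of them. Mean departures of slow fibre markers were -0.478 in supplemented steer 1 and 0.94 in restricted steer 1, in SDs over the 6 arrays. Those of endothelial markers were -0.511 and 0.985. The part of all these markers in the differences of the oxidation genes was not tested either.

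**Figure D5:**
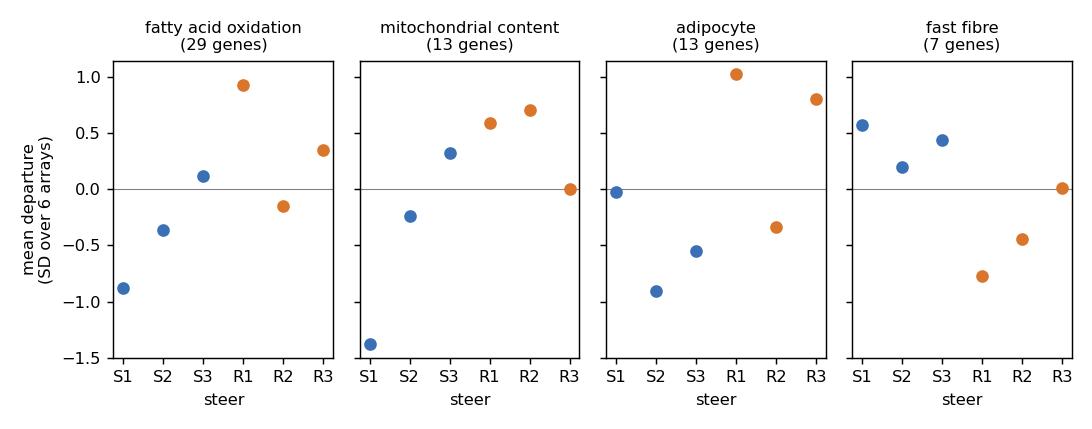
Mean departure of each steer over the genes of a list, in SDs over the 6 arrays, for the 29 fatty acid oxidation genes and the markers of mitochondrial content, adipocytes and fast fibres. S1 to S3 are supplemented and R1 to R3 restricted steers. S1 is lowest among the oxidation genes and the mitochondrial markers, R1 is highest among the oxidation genes and the adipocyte markers, and R1 is lowest in the fast fibre panel.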

How the data were processed

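Muscle RNA of 6 steers, 100 ng each, was labelled with an Affymetrix 3 prime kit and hybridised to 1 array each, per the labels' protocols. The authors deposited a table of 24128 probe sets, whose values are read as log2 from their span of about 5 to 13 and were used unchanged. Log base, background correction, normalization and summarization: not given in the sources used here. Without the 112 control probe sets, 24016 entered limma 3.58.1 (R 4.3.3, lmFit, eBayes with no trend, values times 1e+09), adjusted by Benjamini-Hochberg at 0.05. The fit was also run on simulated data, with independent noise and planted changes far larger than any of the 29 genes had. That run does not bear on the recovery of differences of the size seen in the 29 genes. The p-values set the difference between the diets against the spread between steers within a diet, as it stands in the deposited values. The platform annotation gives 1 gene to 13318 probe sets, several to 86 and none to 10724, and all 36 probe sets of the 29 genes kept their symbol in the ARS-UCD2.0 gene table. As no build is named for the array, no coordinates are printed. Named genes are all members and, of each related list, the 2 with the smallest unadjusted p. Other genes are named as markers, and some of these were picked after their values were seen. Members and lists were chosen with earlier results of these data known. Alternatives were rescaling, filters on level, age, array weights, another variance prior, a replicate block, all probe sets of a gene, and leaving out steers. Arrays give no molecule counts, and their number limits the precision.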

Additional observations from a re-analysis of the deposited data

How the results depend on the processing

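No alternative brought a gene of the 29, or of the 98 related ones, past the adjusted threshold by limma, and 8 of the 29 kept their direction in all of them or had no difference left: ACADM, HADHB, ECHS1, MLYCD, DECR1, ACSL1, CRAT and ACADL. In the fit without these changes CFD, at 6.35 SDs, did not pass either, while the largest difference of the 29 genes was 3.40 SDs. Failing the threshold therefore does not show that differences of the size seen in the 29 genes are absent. Quantile normalization changed most. It left 15 of the 29 genes with no difference, 5 higher and 9 lower, with 0 higher without overlap and a median of -0.577 SDs over the 15 genes that kept a spread (the 14 equal on all arrays have none), and turned ACAA1 to -48.4, ACADS to -204, ACOX3 to -9.88, CPT2 to -8.31, ECH1 to -149, ECI1 to -169, ETFA to -433, FABP3 to 432 and HADH to -747 millionths. It called 35 probe sets, of which 33 had no spread within either group, 15456 probe sets being equal on all arrays. Equal array medians turned ACAA1 to -2.20, ACOT2 to -1.65, CPT1B to -0.428, ECI1 to -0.957 and HADHA to -0.164. That shift spans 8.88 millionths over the 6 arrays, while no array departed from the probe sets' own means by a median of more than 0.00817. Every difference between the diets fell by the same amount, smaller than that span, as in HADHA from 2.06 to -0.164. The shift lowered the median difference of the 29 genes from 0.871 to 0.173 SDs. It left 18 of them higher, beside 10.8% of all genes, and 4 higher without overlap (13.8%, beside 0.546% of all genes). ACOX3 and HADHA then overlapped. On each array the same amount was taken from every gene, while the median range was 1.23 millionths over all genes and 20.2 in the 29. Genes of narrow range mostly take the pattern of the shift itself, so these shares of all genes are not a like background. Age as a covariate turned ACAA1 to -0.208, ACAD9 to 0.0138, ACADVL to 5.32, ACAT1 to -4.19, ECI2 to 0.251 and SLC27A1 to 0.346. With it 25 of the 29 genes were higher, beside 52.5% of all genes, and the median difference was 1.12 SDs. The age fit left 0 probe sets past the threshold in the whole table. Array weights turned ACADVL to 0.712. Without both steers numbered 1, 0 probe sets passed and ACAA1 was at -0.523, ACAA2 at -0.283, ACAT1 at -4.15, ACOT2 at -0.306, CPT2 at -0.0840, HSD17B4 at -2.64 and SLC25A20 at -3.46.

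When single steers were left out, 20 to 27 genes were higher, the median difference was 0.546 to 1.24 SDs, 1 to 2 probe sets passed in the whole table, and 6 to 12 genes were higher without overlap, a count that can only stay or grow when a steer is removed. It was 12 without supplemented steer 3 (10.5% of all genes) or without restricted steer 2 (10.1%), and the share of all genes grew from 4.15% to between 7.47% and 10.5%. Genes that turned then ranged from -0.460 to 0.377 (ACAA1), -0.0305 to 0.00283 (ACAD9), -5.88 to 4.58 (ACADVL), -5.59 to 8.16 (ACAT1), -0.0245 to 1.22 (ACOT2), -5.69 to 0.375 (ECI2), -0.278 to 0.157 (ETFB), -143 to 87.9 (FABP3), -1.74 to 13.9 (HSD17B4) and -0.986 to 0.506 (SLC27A1). With the replicate number as a block 23 genes were higher, the median was 0.875 SDs and 0 probe sets passed. Equal numbers do not mark a shared source in the labels, and deviations of same-numbered steers correlated by 0.0374, 0.0151 and 0.0152 over probe sets, in each case the best match of both steers. Except where a construction is named, the cause was not tested.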
